A study of Rattus norvegicus with 2 samples.

Results

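The 10 genes described here handle iron and heme in the cell, and they were taken by gene symbol from a table of 17202 genes. They are the ferritin chains Fth1 and Ftl1, the uptake pair Tfrc and Tf, the iron sensors Aco1 and Ireb2, the heme oxygenases Hmox1 and Hmox2, the ferritin cargo receptor Ncoa4 and the iron exporter Slc40a1. All 10 symbols were found, each once. RNA was sequenced from cultured wild-type rat oligodendrocyte precursor cells (OPCs), glia that divide and later mature into the oligodendrocytes that make myelin. One culture received amyloid-beta (Aβ), the peptide that accumulates in the plaques of Alzheimer's disease, at 1 µM over 2 days, and DMSO, the solvent, was given to the other. Each group held 1 library, and estimated counts totalled 15117102 (Aβ) and 15019416 (DMSO). The protocol for treatment reads alike in both samples and speaks of Aβ, so the labels give no separate duration for DMSO. The labels describe brain cells of adult animals in one place and of developing animals in another, and they give no number of animals per culture. Both sample titles carry a P1 that the labels do not explain, so the age of the animals is not known here.

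Iron enters most cells bound to transferrin, which is taken up by the transferrin receptor. Iron that is not used at once is stored in ferritin, a hollow shell of heavy and light chains, and it is freed again when ferritin is carried to lysosomes. When iron is scarce, the iron regulatory proteins bind hairpins in messenger RNAs, which blocks translation of ferritin and stabilises the transcript of the receptor, so much of this control acts on translation and is not read by a transcript level. Cells of the oligodendrocyte lineage are rich in iron, transferrin and ferritin, and iron serves the enzymes that make myelin lipids.

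Neither group has a replicate, so the values compare 2 libraries without a test or a p-value, and the spread between cultures is unknown. Levels are given in TPM (the share of transcripts, scaled for their length), which allows genes to be set beside each other. Ratios are Aβ over DMSO, computed from counts scaled to library size (CPM) on TMM library sizes, with 95% Clopper-Pearson intervals that cover counting error only. A gene was called different at a log2 ratio of at least 1 in size with an interval that left out 1, and genes that reached 1 CPM in either library count as measured. Paired values are given with Aβ first and DMSO second.

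Transcripts of the ferritin chains stood far above the rest. Ftl1 had 1927 TPM with Aβ and 1960 TPM with DMSO, and Fth1 had 1627 and 1783 TPM, which placed them at ranks 84 and 99 of all genes with Aβ and at ranks 85 and 93 with DMSO. Ncoa4 (87.1 and 81.4 TPM) and Aco1 (73.4 and 69.9 TPM) came next in both libraries. Below them lay 4 genes at closely spaced levels, and their order differed between the libraries. With Aβ it was Ireb2 (44.6 TPM), Tf (44.6 TPM), Tfrc (41.4 TPM) and Hmox2 (40.8 TPM), and with DMSO it was Tf (47.5 TPM), Tfrc (44.1 TPM), Ireb2 (41.1 TPM) and Hmox2 (37.7 TPM). Each of these genes had a counting interval that overlapped that of its neighbour in both orders. Hmox1 stood lower, at 19.8 and 16.9 TPM, and Slc40a1 was near the lower end of the table, at 0.42 and 0.46 TPM.

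**Figure D1:**
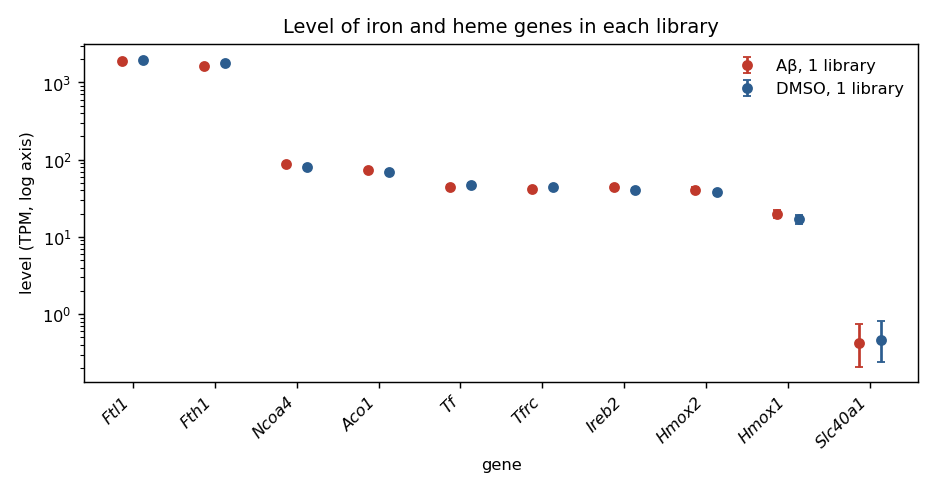
Level of each of the 10 genes in TPM on a log axis, in the Aβ library (red) and the DMSO library (blue), with bars for the 95% counting interval of each library. The ferritin chains lie between 1627 and 1960 TPM and Slc40a1 lies below 1 TPM, and the red and blue points of each gene lie close together.

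Of the 9 measured genes, 0 were called, beside 0.674% of all 13505 measured genes (0.267% higher and 0.407% lower with Aβ). Ratios lay above 1 for 5 genes (Hmox1, Hmox2, Ireb2, Ncoa4 and Aco1) and below 1 for 4 (Fth1, Tfrc, Tf and Ftl1). The median log2 ratio of the 9 was 0.031, beside -0.00078 over all measured genes. For all 9 the interval lay wholly within 1.5-fold, as it did for 80.1% of measured genes. Of the 5050 measured genes at a mean of 50 CPM or more, it did so for 5038, and 3 were called. Intervals lay wholly below 1 for 3 genes (Fth1, Ftl1 and Tfrc), beside 6.88% of all measured genes, and wholly above 1 for 0, beside 6.49%. This tally depended on the unit. With TPM, which raised the ratios of most genes, it lay below 1 for 2 (Fth1 and Tfrc, beside 4.20% of measured genes) and above 1 for 2 (Ireb2 and Ncoa4, beside 13.5%). The interval narrows as the level rises, so abundant genes leave out 1 more readily. Among the 5050 genes at a mean of 50 CPM or more it lay below 1 for 9.62% and above 1 for 9.17%, and these include 7 of the 10 genes.

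**Figure D2:**
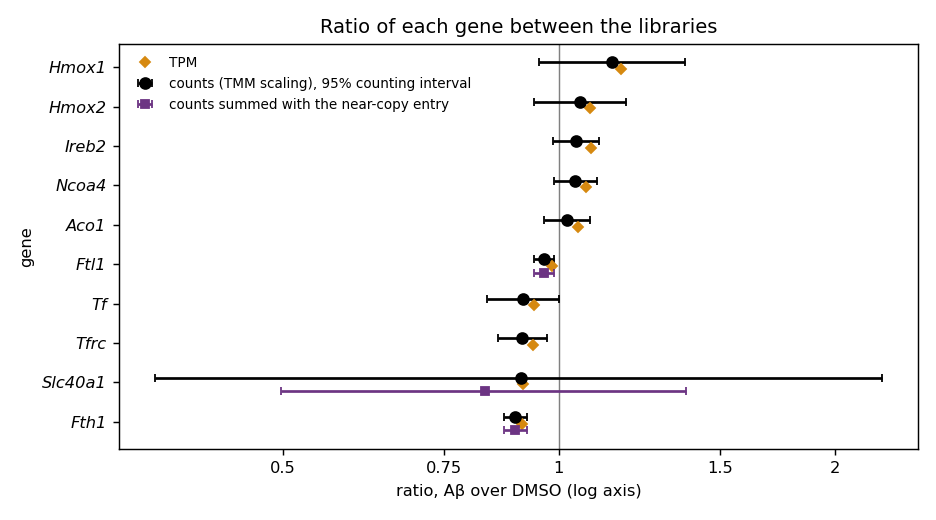
Ratio of each gene, Aβ over DMSO, on a log axis, from counts with the 95% counting interval (black), from TPM (orange), and from counts summed with the near-copy entry where there is one (purple). Black intervals of Fth1, Ftl1 and Tfrc lie wholly below 1, and those of the other genes reach 1.

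Both storage genes had ratios below 1, the heavy chain further than the light chain, and neither was called. Fth1 encodes the heavy chain, which oxidises iron as it enters the shell. Its estimated counts were 8778.75 and 9712.95, a ratio of 0.897 (0.871 to 0.923) by counts and 0.912 by TPM. Of the 5050 genes at 50 CPM or more, 104 (2.06%) had a log2 ratio at or below the -0.16 of Fth1, so this gene sat at the low edge of the range of abundant genes. Ftl1 encodes the light chain, which helps the mineral core to form. It had 12137.67 and 12482.87 counts, a ratio of 0.964 (0.941 to 0.989) by counts and 0.983 by TPM. At or below its log2 ratio of -0.052 lay 22.1% of genes at 50 CPM or more, so Ftl1 was in the lower part of their range but not at its edge.

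The share of heavy to light chain transcripts does not depend on how the libraries are scaled. Fth1 had 0.844 times the TPM of Ftl1 with Aβ and 0.910 times with DMSO. From counts, the heavy-to-light ratio with Aβ was 0.930 times that with DMSO (0.895 to 0.966, an exact conditional interval for counting error). The 2 chains assemble into the same shells, and tissues are known to differ in the mix.

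Both ferritin transcripts are short, and the log2 ratio varied with transcript length across all genes. From the deposited counts and FPKM, their effective lengths came to 505 bases for Fth1 and 591 bases for Ftl1, in the shortest of 10 equal groups of measured genes by length. The median log2 ratio was -0.032 in that group and 0.038 in the longest group. Of the 387 genes of the shortest group at 50 CPM or more, 17 (4.39%) lay at or below Fth1 and 162 (41.9%) at or below Ftl1. With the median of the length group taken off, the log2 ratio was -0.13 for Fth1 and -0.020 for Ftl1, and the interval of Ftl1 then reached 1, as it did with TPM. The part of transcript length in these differences was not tested beyond that.

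Ferritin genes have many processed copies in rodent genomes, and both chains carried fractional counts. Such counts can arise where reads that fit more than 1 transcript are shared out among the entries. The quantifier is not given, so the source of the fractions was not tested. Fractional counts were listed for 3 of the 10 genes (Fth1, Ftl1 and Slc40a1) and for 13.4% of all 17202 genes. The Fth1 row had 1 partner among all rows with fractions, LOC689130, whose count made the sum whole in both libraries. RefSeq now names that entry Fth1-ps5, a pseudogene. It took 3.25 and 3.05 counts, or 0.0370% and 0.0314% of the pair. Summed, the pair had 8782 and 9716 counts, a ratio of 0.897 (0.871 to 0.923). The partner of Ftl1 was LOC100360087, a protein-coding entry that has Ftl1 among its RefSeq synonyms. It took 240.33 and 258.13 counts, or 1.94% and 2.03% of the pair, and the pair had 12378 and 12741 counts, a ratio of 0.964 (0.940 to 0.988). Summing with the partner entry thus moved neither ferritin ratio by more than the counting interval.

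The genes of the uptake pair had nearly the same ratio, below 1 for both, and neither was called. Tfrc encodes the transferrin receptor, which dividing cells need for iron. It had 1963 and 2133 counts, all whole, a ratio of 0.913 (0.858 to 0.971) by counts and 0.939 by TPM. Tf encodes transferrin, the iron carrier that oligodendrocytes make and secrete. It had 933 and 1012 counts, a ratio of 0.914 (0.836 to 1.00) by counts and 0.939 by TPM, and its interval reached just past 1. Tfrc had 0.928 times the TPM of Tf in each library, and from counts the receptor-to-carrier ratio was 0.998 times as high with Aβ (0.895 to 1.11). Of genes at 50 CPM or more, 3.90% lay at or below Tfrc and 4.20% at or below Tf. With the median of the length group taken off, the log2 ratios were -0.15 for Tfrc and -0.12 for Tf. In bulk RNA, fewer cells of a type and less RNA per cell cannot be told apart, which bears on Tf because it rises as oligodendrocytes mature. Markers of mature oligodendrocytes, all 10 of which were listed, summed to 84.5 TPM with Aβ and 85.5 TPM with DMSO, with ratios above 1 for 4 of the 10 and none of the 10 at 0 in both libraries. Their part in the Tf value was not tested.

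The ratio of Fth1 (0.897) was close to those of Tf and Tfrc as well, so a near match was not particular to this pair. The stretches before the starts of Tf and Tfrc are shown because the pair had nearly the same ratio. They are the 250 bases upstream of each RefSeq start in build GRCr8, read 5′ to 3′ on the strand of the gene, Tf from chr8:112695377-112695626 and Tfrc from chr11:81690319-81690568, both on the minus strand. Capitals mark matches, on either strand, to the motifs searched, which were the TATA box TATAAA, the CCAAT box CCAAT, the GC box GGGCGG, the core of the hypoxia response element ACGTG and the core of the antioxidant response element TGANNNNGC.
Tf: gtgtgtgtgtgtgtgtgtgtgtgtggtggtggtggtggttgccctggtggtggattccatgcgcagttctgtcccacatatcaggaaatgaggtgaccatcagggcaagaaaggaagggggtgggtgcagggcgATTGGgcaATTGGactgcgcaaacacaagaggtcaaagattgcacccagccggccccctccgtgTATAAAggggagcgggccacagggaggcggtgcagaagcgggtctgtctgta
Tfrc: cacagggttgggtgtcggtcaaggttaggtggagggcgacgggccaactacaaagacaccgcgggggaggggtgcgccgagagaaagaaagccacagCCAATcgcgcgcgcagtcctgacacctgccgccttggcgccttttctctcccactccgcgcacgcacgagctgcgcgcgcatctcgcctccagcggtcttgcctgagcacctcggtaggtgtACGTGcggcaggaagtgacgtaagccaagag

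Both windows held the CCAAT box, which 34.0% of the 33469 rat promoter windows of the same length also held. In Tf it lay on the opposite strand, from 116 and from 108 bases before the start, and in Tfrc on the strand of the gene, from 153 bases before it. The TATA box was present in Tf, from 52 bases before the start, and in 12.9% of all windows. The core of the hypoxia response element was present in Tfrc, from 31 bases before the start, and in 16.6% of all windows. None of the matches shown overlapped another. RefSeq windows were found for 7 of the 10 genes, and Fth1, Ftl1 and Hmox1 had no entry. Among the 7, the window of Ncoa4 and 1 of the 2 windows of Hmox2 held the core of the antioxidant response element, as did 34.7% of all windows. A match describes letters in a window and says nothing of binding in these cells.

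The iron sensors were close to equal in the libraries, and close to each other in counts. Aco1 encodes a protein that is an aconitase when it carries an iron-sulfur cluster and an RNA-binding regulator (IRP1) when it does not. It had 2410 and 2340 counts, a ratio of 1.02 (0.965 to 1.08). Ireb2 encodes IRP2, which is degraded when iron is plentiful. It had 2443 and 2319 counts, a ratio of 1.04 (0.987 to 1.11). Per transcript length, Aco1 stood at 1.65 times the TPM of Ireb2 with Aβ and 1.70 times with DMSO, and the ratio of these in counts was 0.978 (0.901 to 1.06). IRP2 binds and stabilises the receptor transcript. Set against Ireb2, Tfrc had a ratio of ratios of 0.874 (0.803 to 0.951). Set against the ferritin chains, Tfrc had 1.02 (0.951 to 1.09) with Fth1 and 0.946 (0.885 to 1.01) with Ftl1, without adjustment for transcript length. Both of these intervals spanned 1.

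By counts the heme oxygenases had the highest ratios of the 9 genes, and neither interval left out 1. By TPM the ratio of Ireb2 (1.085) was just above that of Hmox2 (1.082). Hmox1 encodes the inducible enzyme that opens heme and frees its iron, and it is a common readout of oxidative stress. It had 258 and 224 counts, a ratio of 1.14 (0.951 to 1.37) by counts and 1.17 by TPM. Hmox2, the constitutive form, had 619 and 582 counts, a ratio of 1.05 (0.941 to 1.18). Hmox1 had 0.485 times the TPM of Hmox2 with Aβ and 0.448 times with DMSO, and the ratio of these in counts was 1.08 (0.871 to 1.35). Hmox1 and Fth1 are both known targets of the antioxidant factor NRF2, and they stood on opposite sides of 1. From counts, the ratio of Hmox1 to Fth1 was 1.27 times as high with Aβ (1.06 to 1.53), without adjustment for transcript length. By counts Hmox1 had the highest ratio of the 9 genes and Fth1 the lowest. A pair of extremes favours an interval that leaves out 1, so nothing is concluded from this interval. The effective length of Hmox1 was 1225 bases, in a group with a median log2 ratio of -0.010, beside -0.032 in the group of Fth1.

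Of the genes that release and export iron, the first was abundant and the second near the floor of the assay. Ncoa4 encodes the receptor that carries ferritin to lysosomes, where its iron is freed. It had 2869 and 2729 counts, a ratio of 1.04 (0.989 to 1.10) by counts and 1.07 by TPM. Set against its cargo, the ratio of ratios of Ncoa4 was 1.16 (1.10 to 1.24) with Fth1 and 1.08 (1.02 to 1.15) with Ftl1. Neither was adjusted for transcript length. The effective length of Ncoa4 was 3098 bases, in a group with a median log2 ratio of -0.0033, beside -0.032 in the group of the ferritin chains. Slc40a1 encodes ferroportin, the iron exporter. It had 10.63 and 11.71 counts, which was under 1 CPM in both libraries, so it was not among the 9 measured genes, and its ratio was 0.909 (0.364 to 2.25). Its fractions were completed by 1 other entry, gene-Slc40a1-2, which held 20.37 and 25.29 counts, or 65.7% and 68.4% of the pair. Summed, the pair had 31 and 37 counts, 2.05 and 2.47 CPM, and a ratio of 0.831 (0.499 to 1.38). The row that bears the symbol alone thus held the smaller share of these counts, and a difference between the libraries was not detectable at this depth.

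**Figure D3:**
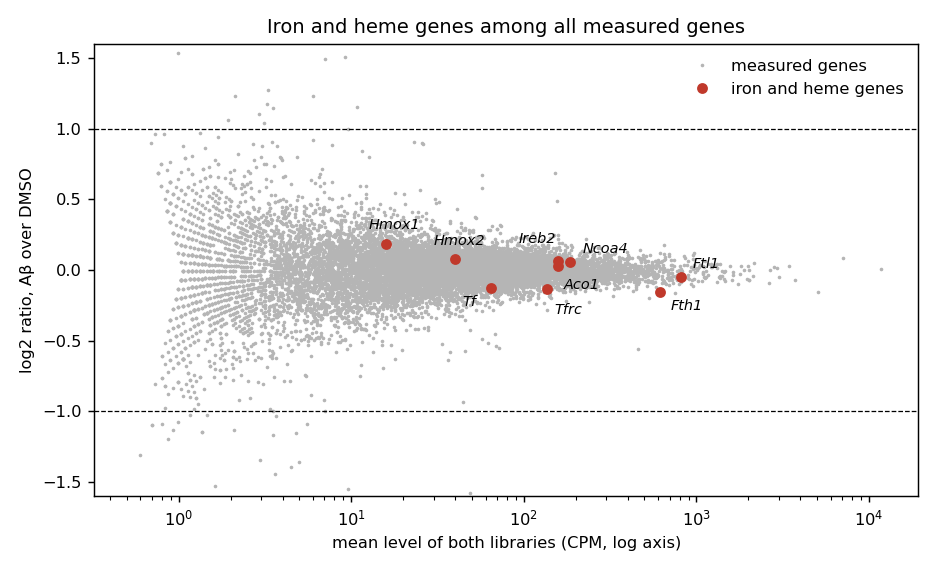
Log2 ratio of each measured gene, Aβ over DMSO, against its mean level in CPM on a log axis (grey), with the 9 measured iron and heme genes in red. Dashed lines mark log2 ratios of 1 and -1, all 9 genes lie between them, and 55 measured genes beyond 1.6 in size are outside the plotted range.

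Read by eye in the plot of ratios by level, Fth1, Tfrc and Tf lie toward the lower side of the grey cloud. Ftl1, Aco1, Ireb2, Ncoa4, Hmox1 and Hmox2 lie inside it. No rank among genes of like level was computed, and the counting interval of Tf reached 1.

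Ferritin and ferroportin are abundant in microglia and macrophages, so markers of these cells were read beside them. All 13 markers were listed, and they summed to 17.9 TPM with Aβ and 22.8 TPM with DMSO. Ratios lay below 1 for 9 of the 13 and above 1 for 4. None had more than 50 counts in either library, none was at 0 in both libraries, and none exceeded 5.66 TPM. The part of these cells in the ferritin and ferroportin values was not tested. Erythroid genes, a source of heme, summed to 0.53 TPM and 0.98 TPM, and 0 of the 4 listed ones were measured. For the labelled cell type, 9 of 10 OPC markers were listed, at 13.2 to 850 TPM, among them Olig2 (216 and 209 TPM), which drives the lineage, and Pdgfra (228 and 206 TPM), the receptor for PDGF-A. The 9 listed OPC markers summed to 2239 and 2165 TPM. The astrocyte marker Gfap was also high, at 838 and 793 TPM, and the 10 astrocyte markers summed to 2299 and 2181 TPM. The 10 neuron markers summed to 830 and 797 TPM. How far the levels of the iron genes come from OPCs or from such other cells was not tested.

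The other genes of iron and heme handling were also close in the libraries. Of 114 such genes listed in 8 groups, 100 were measured, and 0 were called, beside 0.674% of all measured genes. Ratios lay above 1 for 52 and below 1 for 48, beside 49.7% and 50.3% of all measured genes. Intervals lay wholly above 1 for 5 and wholly below 1 for 5, beside 6.49% and 6.88%. These counts were near the shares over all measured genes. The median log2 ratio of the 100 was 0.0062, beside -0.00078 over all measured genes.

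Genes of iron import and reduction had a median log2 ratio of -0.0077 over 9 measured genes. Lrp1, a large endocytic receptor that also takes up heme bound to hemopexin, had 66.3 and 59.7 TPM and a ratio of 1.08 (1.05 to 1.11). The metal importers Slc39a14 and Slc11a2 stood at 0.995 (0.931 to 1.06) and 1.06 (0.958 to 1.17). Tfr2, the second transferrin receptor, had 16 and 21 counts and a ratio of 0.756 (0.369 to 1.52), and the reductase Steap4 19 and 22 counts and 0.857 (0.438 to 1.66). Tfr2 was at 0.57 and 0.79 TPM, so Tfrc was the main receptor transcript.

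Among 9 genes of iron chaperones, ferritin handling and sensing the median log2 ratio was 0.034. The chaperones that deliver iron to ferritin, Pcbp1 and Pcbp2, stood below 1, like the ferritin chains, at 0.931 (0.886 to 0.977) and 0.947 (0.917 to 0.977), the latter with fractional counts. Fbxl5, which marks IRP2 for degradation when iron is plentiful, had a ratio of 1.09 (0.992 to 1.19), and its ligase partner Skp1, at 1025 and 979 TPM, 1.02 (0.995 to 1.05). Epas1, a hypoxia-inducible factor whose transcript carries an iron-responsive hairpin, had 1.10 (0.989 to 1.22).

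Genes of iron export and the hepcidin axis, the smallest group, had the highest median of the groups, 0.10 over 7 measured genes. Of these, 6 lay above 1, beside 49.7% of all measured genes, and 1 had an interval wholly above 1. The median was the value of Hfe, which had 19 and 17 counts and a ratio of 1.11 (0.546 to 2.27). The BMP receptor Bmpr1a, at 60.2 and 52.6 TPM, had a ratio of 1.12 (1.05 to 1.19), and the signal transducer Smad4 1.01 (0.948 to 1.09). The co-receptor Neo1 had 1.05 (0.994 to 1.10). The ferroxidases Heph and Hephl1, which oxidise iron at the exporter, had 1.24 (0.890 to 1.72) and 1.24 (0.964 to 1.59) from 69 to 146 counts. Cp, a ferroxidase with more counts (861 and 895), had a ratio below 1, at 0.954 (0.868 to 1.05).

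Heme synthesis genes divided evenly, with 5 of 10 above 1 and a median log2 ratio of -0.012. Urod stood at 0.935 (0.835 to 1.05) and Alad at 0.926 (0.778 to 1.10), both of them enzymes of the path to heme. The protease subunit Clpx, which acts on the first enzyme of the path, had 1.00 (0.915 to 1.10), and Ppox, the oxidase before iron insertion, 1.18 (1.02 to 1.37). Of 15 genes of heme and biliverdin turnover and transport, 8 lay above 1, and the median was 0.0037. Por, which supplies electrons to the heme oxygenases, stood at 0.971 (0.910 to 1.03). The heme-binding proteins Pgrmc1 and Pgrmc2 had 1.04 (0.987 to 1.09) and 1.04 (0.953 to 1.14). Slc46a1, a folate carrier that can also move heme, had 1.06 (0.938 to 1.21), and Flvcr2 had 19 and 15 counts and 1.26 (0.605 to 2.66).

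Of 27 genes of mitochondrial iron and iron-sulfur clusters, 12 lay above 1 and 15 below, with a median of -0.020. The chaperone Hspa9 stood at 0.986 (0.942 to 1.03) with fractional counts. The cluster protein Cisd1 had 0.958 (0.858 to 1.07) and the assembly factor Bola3 1.30 (1.02 to 1.66) from 158 and 121 counts. Nfs1, the cysteine desulfurase, had 0.794 (0.531 to 1.18) with fractional counts of 47.56 and 60.35.

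The 14 measured genes of the NRF2 and BACH1 axis, which helps to set transcription of Hmox1 and ferritin, had a median of 0.012. The NRF2 targets Gclm and Txnrd1 stood at 0.903 (0.827 to 0.986) and 0.986 (0.935 to 1.04). The repressor Bach2 had 70 and 49 counts and a ratio of 1.42 (0.970 to 2.08), and the small Maf protein Maff 30 and 36 counts and 0.827 (0.492 to 1.38). Ferroptosis genes, of a death path that iron drives, had a median of -0.0085 over 9 measured genes, of which 3 lay above 1. Gpx4, the lipid peroxidase that holds this path in check, had 433 and 427 TPM and a ratio of 0.995 (0.941 to 1.05), and the cystine carrier subunit Slc3a2 0.994 (0.946 to 1.04). Sat1, a polyamine acetyltransferase, stood at 0.910 (0.870 to 0.951), and Chac1, a glutathione-degrading enzyme, at 0.803 (0.495 to 1.29) from 34 and 42 counts.

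**Figure D4:**
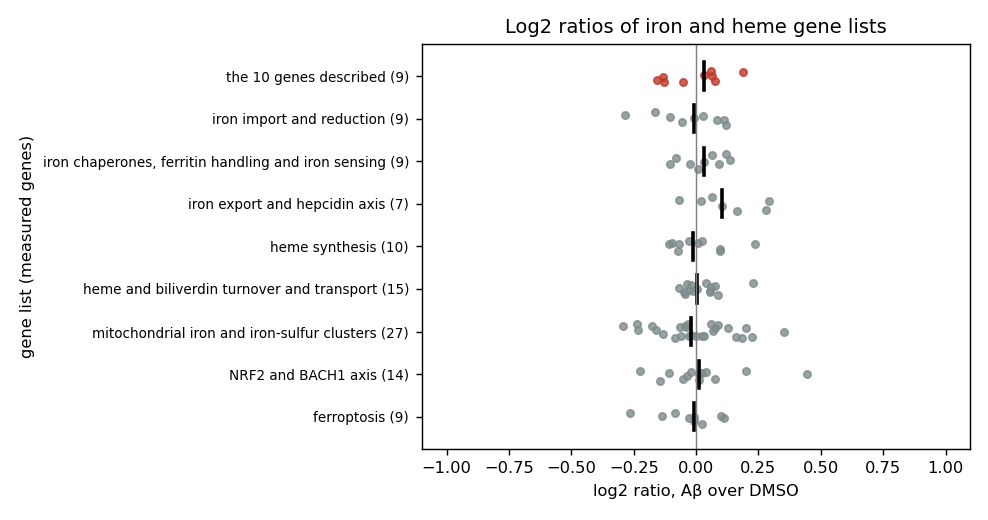
Log2 ratio, Aβ over DMSO, of each measured gene (points) in the 10 genes described (red) and in 8 lists of other iron and heme genes (grey), with a black bar at each median and the number of measured genes in brackets. No point reaches 1 in size, and the medians lie between -0.020 and 0.10.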

How the data were processed

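The deposited table holds 4 values per gene and library. The authors' expected counts (estimated counts) are not all whole. The authors' TPM and FPKM values are scaled for transcript length and library size, per the file headers. A further signal column, a normalized count per the file headers, is a rescaled form of the same counts (1 constant per library), and it was not used. Per the submitters' processing notes, Bowtie2 and the rat build Rnor_6.0 were used, while quantifier, annotation and strand use are not given in the sources read.

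Counts were rounded to whole numbers. TMM library sizes came from edgeR 4.0.16 in R 4.3.3, and DESeq2 1.42.0 size factors served as an alternative. The log2 ratio used a pseudocount of 0.5 CPM, which shrinks the log2 ratios of weakly expressed genes, while ratios in the text have none. Intervals are exact Clopper-Pearson limits, conditional on the sum of both counts (scipy 1.17.1). The calling rule was checked on simulated counts. Ratios between genes within a library used the conditional odds ratio. Near-copies are entries with fractional counts whose table name, RefSeq symbol or synonym reduces to the same gene. RefSeq symbols and promoter windows are from GRCr8, and no RefSeq gene coordinates were used for expression.

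The members and lists were chosen with earlier results of these data known. From each list the text names the 3 measured genes with the highest mean TPM and the 2 with the largest log2 ratio in size. Cp was added to these as a ferroxidase with a ratio below 1, and Hfe as the gene at the median of its list. Some genes that this rule takes are not reported here.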

Additional observations from a re-analysis of the deposited data

How the results depend on the processing

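No paired analysis was possible because each group held 1 library, and for the same reason no replicate could be left out. Of 108 ratios of single members recomputed under up to 12 alternatives, 108 kept their direction and stayed within the main counting interval. Many of these could not move, so the tally overstates how far the ratios were tried. A change of filter, or the limit to whole counts, leaves the ratio of a gene as it was. Unrounded counts and summed near-copies can alter only genes with fractional counts. The interval itself reached 1 for Ftl1 with TPM and with the length trend removed, and it left out 1 for Tf with FPKM and for Ireb2 and Ncoa4 with TPM. Slc40a1 gave a value in 2 of them, with no filter and with near-copies summed. The log2 ratio ranged from -0.17 to -0.13 for Fth1, from -0.064 to -0.020 for Ftl1, from -0.15 to -0.091 for Tfrc, from -0.13 to -0.090 for Tf and from 0.15 to 0.22 for Hmox1. The members called numbered 0 under all 12, as did the other iron and heme genes called. With TPM the median log2 ratio was 0.070 over the members and 0.044 over the other iron and heme genes, where the median of all measured genes was itself 0.037 on the same scale. The member median took the other sign when Slc40a1 entered, at -0.011 with no filter and -0.011 with near-copies summed, so it describes no common direction. The genes called among all measured genes numbered 91, and 24 with pseudocount 5, 24 with a filter of 10 CPM, which tests fewer genes, and 12 with whole counts only. The other alternatives gave 77 with near-copies summed to 131 with pseudocount 0.1, with 117 with no filter and 101 with TPM. Removal of the length trend was chosen after seeing the data. Depth limits Slc40a1 most, and Hmox1 next.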
